A study of Mus musculus with 34 samples.

Results

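The regions described here are ATAC-seq summits that day-4 Brg1-floxed embryoid bodies (EB) held without 4-hydroxytamoxifen (4OHT) and did not hold with it. A summit is the base of highest signal in a peak of open chromatin. A member was a summit on chromosomes 1 to 19 or X of untreated replicate 1 that had a summit within 250 bp in untreated replicate 2 and none within 250 bp in either 4OHT sample. Of the 31436 summits of untreated replicate 1, 18738 had a partner in untreated replicate 2. Of these, 4971 were missing from both 4OHT lists and are the members, 2507 were present in 1 of the 4OHT lists, and 11260 were kept in all 4 lists. The 19 summit lists of the whole series hold 707465 summits on these chromosomes. The members were chosen by presence in the untreated lists and absence from the 4OHT lists, so the 26.5% of partnered summits that were missing is a description and not a test.

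The series followed open chromatin in mouse embryonic fibroblasts (MEF) and EB, aggregates of differentiating embryonic stem cells, while Etv2 was switched on with doxycycline (Dox). The 34 samples form 17 groups of 2. The group with 4OHT is Brg1-floxed EB at day 4 with Dox and 4OHT, and its comparison group is Brg1-floxed EB at day 4 with Dox and no 4OHT, so the floxed allele and Dox are common to both. The design text calls the EB of this experiment a Brg1 knockout, and the labels do not name the recombinase. The EB lists from 12 h are Dox sorted for Flk1, unsorted Dox, and NoDox, without a floxed allele in their labels. The MEF lists are Brg1 knockdown (KD) and no knockdown, each with and without Dox on days 0 to 7. Each floxed list is 1 sample, and the other 15 lists each serve both samples of a group and carry no replicate error. Nothing in the labels says that replicates came from separate cultures, so their spread may be technical.

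Brg1, encoded by Smarca4, is an ATPase of SWI/SNF complexes, which use ATP to slide or evict nucleosomes. In embryonic cells these complexes are known for keeping enhancers accessible, whereas many CpG-rich promoters are held open by other means as well. Etv2 is an ETS factor needed for mesoderm to give rise to endothelium and blood, and 4OHT activates recombinases fused to an estrogen receptor domain.

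Among members that lay at the start of a gene of the lists used here, the promoters of Msgn1, Esrrb, Col1a2 and Runx1 are shown, because they are start sites at which a summit of both untreated samples was missing with 4OHT. Msgn1 encodes a bHLH factor of presomitic mesoderm, Esrrb an orphan nuclear receptor of naive pluripotency, Col1a2 a chain of type I collagen and Runx1 a factor needed for definitive blood formation. The promoters of Dnmt3b, a de novo DNA methyltransferase, and Foxc1, a forkhead factor of mesoderm and vessels, held a kept summit and are shown for contrast. The sequences are from RefSeq (GRCm38.p6, equal to mm10), run 5′ to 3′ on the strand of the gene and span 250 bases before to 50 after the annotated start. Capitals mark matches to the short motifs listed further on.
Msgn1, missing, chr12:11208899-11209198, minus strand: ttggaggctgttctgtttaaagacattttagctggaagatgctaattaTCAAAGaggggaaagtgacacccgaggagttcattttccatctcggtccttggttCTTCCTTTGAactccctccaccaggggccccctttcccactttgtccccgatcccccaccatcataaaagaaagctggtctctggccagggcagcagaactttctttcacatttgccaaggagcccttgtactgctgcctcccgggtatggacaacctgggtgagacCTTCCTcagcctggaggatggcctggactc
Esrrb, missing, chr12:86421394-86421693, plus strand: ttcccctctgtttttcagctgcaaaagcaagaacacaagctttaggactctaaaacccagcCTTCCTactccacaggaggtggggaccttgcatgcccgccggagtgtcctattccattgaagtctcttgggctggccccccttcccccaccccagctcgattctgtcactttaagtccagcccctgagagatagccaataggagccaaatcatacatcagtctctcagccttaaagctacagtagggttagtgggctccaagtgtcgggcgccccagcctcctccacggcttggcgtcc
Col1a2, missing, chr6:4505368-4505667, plus strand: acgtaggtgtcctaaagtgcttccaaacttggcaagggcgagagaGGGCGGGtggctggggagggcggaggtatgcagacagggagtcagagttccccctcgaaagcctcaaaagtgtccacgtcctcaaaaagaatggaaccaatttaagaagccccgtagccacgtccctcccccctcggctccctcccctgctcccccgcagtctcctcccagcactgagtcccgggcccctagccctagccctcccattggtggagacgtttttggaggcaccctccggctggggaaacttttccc
Runx1, missing, chr16:92697280-92697579, minus strand: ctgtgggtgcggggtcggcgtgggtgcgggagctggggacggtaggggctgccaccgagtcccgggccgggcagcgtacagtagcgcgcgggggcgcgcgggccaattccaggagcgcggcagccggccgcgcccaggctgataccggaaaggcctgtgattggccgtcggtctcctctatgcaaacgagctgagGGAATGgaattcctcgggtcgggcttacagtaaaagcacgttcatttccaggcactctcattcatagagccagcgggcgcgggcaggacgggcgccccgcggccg
Dnmt3b, kept, chr2:153649199-153649498, plus strand: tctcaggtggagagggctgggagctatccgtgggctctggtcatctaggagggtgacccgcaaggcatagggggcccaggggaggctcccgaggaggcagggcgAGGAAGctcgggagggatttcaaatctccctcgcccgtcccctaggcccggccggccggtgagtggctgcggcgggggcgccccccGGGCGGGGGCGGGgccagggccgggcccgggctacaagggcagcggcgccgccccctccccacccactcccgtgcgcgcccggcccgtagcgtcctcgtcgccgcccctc
Foxc1, kept, chr13:31806396-31806695, plus strand: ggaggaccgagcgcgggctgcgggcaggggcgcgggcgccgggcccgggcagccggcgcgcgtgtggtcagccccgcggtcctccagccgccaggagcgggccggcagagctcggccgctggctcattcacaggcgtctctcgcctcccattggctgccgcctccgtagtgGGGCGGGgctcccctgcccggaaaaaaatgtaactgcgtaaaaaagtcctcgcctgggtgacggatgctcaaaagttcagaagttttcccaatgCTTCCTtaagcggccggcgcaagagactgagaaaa

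The Msgn1 window held 4 CpG dinucleotides, Esrrb 7, Col1a2 13 and Runx1 35. The member windows of Fgf4 and Arid1a, genes of the lists that are not shown, held 28 and 22. The kept windows held 30 CpG at Dnmt3b and 32 at Foxc1. The member summit of Msgn1 lay at base 12 of its window, with scores of 8.07 and 9.37 in the untreated samples. A score is the authors' −log10 of the q value of the summit, and it describes the summit within its own list. The nearest 4OHT summits to it were 21307 and 21320 bp away. The Esrrb summit lay at base 189 with untreated scores of 10.8 and 5.20, and its nearest 4OHT summits were 179734 and 11956 bp away. The Col1a2 summit at base 192 scored 7.83 and 5.45, and no 4OHT summit lay closer than 95548 bp. The Runx1 summit at base 126 scored 19.6 and 2.91, and 4OHT replicate 1 held a summit 1346 bp away. The promoters of Esrrb, Col1a2 and Runx1 also held a summit in each of the 12 h EB lists, whereas the Msgn1 summit was in none of them. The kept summit of Dnmt3b had 4OHT summits 28 and 54 bp away, with scores of 23.5 and 23.9 there, and the untreated scores were 19.9 and 12.3. At Foxc1 the kept summit had 4OHT summits 3 bp away in both samples, with scores of 3.93 and 2.75, and the untreated scores were 7.13 and 7.41.

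The 4OHT lists held 17946 and 20229 summits and the untreated lists 31436 and 23823, so the groups did not overlap in list length. With 2 samples against 2 an exact permutation test cannot give a two-sided p below 0.333. Median scores ran the other way, at 12.3 and 12.5 in the 4OHT lists and 8.63 and 8.53 in the untreated lists. Read depth was not used here. In the opposite direction, 1111 of the 14898 summits shared by the 4OHT lists were in neither untreated list, which is 7.46%. The untreated lists differed from each other too: 12698 summits of replicate 1 had no partner in replicate 2. The label of floxed EB was checked at the ends of 20 marker genes. The 4OHT lists held gene-end summits at 9 and 10 of the markers and the untreated lists at 10 and 10, against 16 in each 12 h EB list. Marked in all 4 floxed lists were endothelial Kdr, haematopoietic Tal1, mesodermal T and Mesp1, Sox2 of pluripotency and Twist1 of fibroblasts. No floxed list had a gene-end summit at Pecam1, Tek, Cdh5, Gata2, Lmo2, Lyl1, Pdgfra and Prrx1. Starts inside a gene were not counted, and Gata2 had a member 140 bp from such a start. The check thus does not single out a cell type. Of the 20 markers only Hand1, a factor of lateral mesoderm, had a member at its gene ends, with 0 and 0 gene-end summits with 4OHT against 2 and 1 without it. In bulk samples fewer cells of a type and less open chromatin per cell cannot be told apart.

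The targeted gene offers no check of the deletion, because summits do not measure DNA copies and the labels do not place the floxed exons. Within 50 kb of Smarca4 the 4OHT lists held 3 and 3 summits and the untreated lists 5 and 4. The summit 6 bp from the Smarca4 start was kept, with untreated scores of 32.1 and 28.4. A member lay 2739 bp from the neighbouring gene Spc24, with untreated scores of 7.32 and 4.50.

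Members were mostly distal. A summit was called proximal within 1 kb of an end of a protein-coding gene or of an annotated RefSeq start, and distal otherwise. Of the members 3794, or 76.3% (exact Clopper-Pearson 95% interval 75.1 to 77.5), were distal, against 2402 or 21.3% (20.6 to 22.1) of kept summits. Gene ends lay within 1 kb of 17.1% of members (16.1 to 18.2) and of 69.2% of kept summits (68.3 to 70.0). Intervals cover counting error over summits and no difference between cultures. Read from the other side, 51.8% of distal partnered summits were missing (3794 of 7319) and 10.3% of proximal ones (1177 of 11419). Once distal, members and kept summits were placed alike with respect to genes: 43.0% of distal members (41.4 to 44.6) and 42.6% of distal kept summits (40.6 to 44.6) lay inside a gene interval. Beyond 50 kb from protein-coding genes were 23.7% of distal members (22.4 to 25.1) and 24.6% of distal kept summits (22.9 to 26.3).

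Members had low scores in the untreated lists from which they were drawn. Their median score was 7.58 in untreated replicate 1 and 5.67 in replicate 2, against 21.6 and 15.3 for kept summits. Members ranged up to 158 in replicate 1. The share missing fell with score in both position classes. Among distal summits it was 66.2% in the lowest of 10 equal score bins (63.6 to 68.6), 47.9% in the fifth (44.3 to 51.5) and 3.77% in the highest (1.74 to 7.03). Among proximal summits it was 60.1% (55.4 to 64.7), 11.4% (9.62 to 13.5) and 0.734% (0.380 to 1.28) in the same bins. In the fifth bin, with scores of 11.8 to 14.7, the distal share was thus above the proximal one by more than both intervals. Weighted to the scores of the members, 43.3% of kept summits lay within 1 kb of a gene end, so that the difference, members minus kept, was -26.1 percentage points in place of -52.03 without weighting. When only summits with scores of at least 10 in both untreated lists were taken, 654 of 9290 were missing, or 7.04% (6.53 to 7.58). When the 4 lists were each cut to their 17946 highest-scoring summits, 2376 of 13905 were missing, or 17.1% (16.5 to 17.7).

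**Figure D1:**
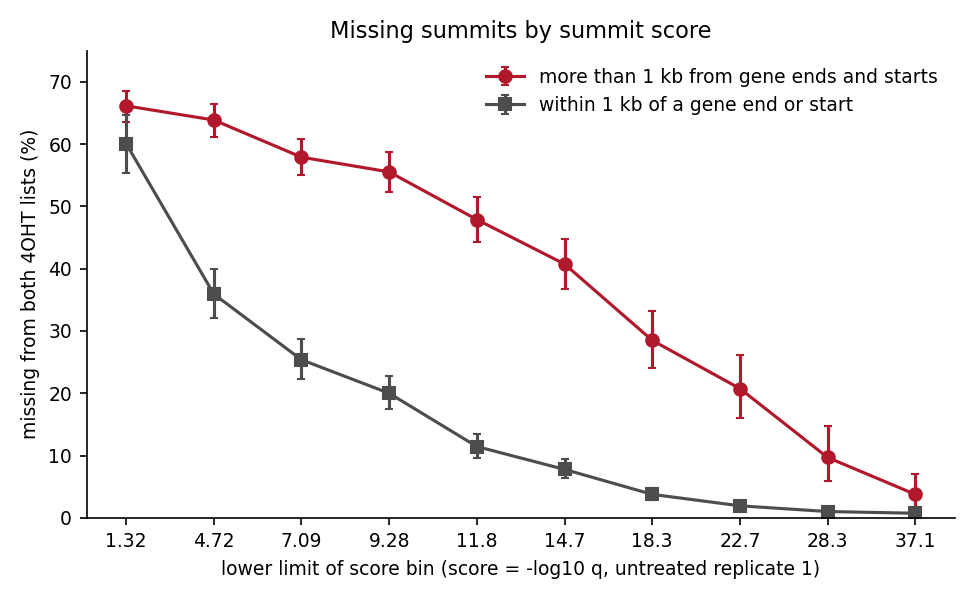
Percentage of untreated summits, found in both untreated samples, that were missing from both 4OHT lists (y axis), by score bin in untreated replicate 1 (x axis, lower limit of each of 10 bins). Red circles are summits more than 1 kb from gene ends and starts, grey squares are summits within 1 kb, and bars are exact 95% intervals; the red line runs from 66.2% to 3.77% and the grey line from 60.1% to 0.734%.

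Absence within 250 bp did not always mean that the neighbourhood was empty. A 4OHT summit lay 251 to 500 bp away from 8.77% of members (8.0 to 9.59), and this share was 4.74% for distal members and 21.8% for proximal ones. For 4381 members, or 88.1% (87.2 to 89.0), no 4OHT summit lay within 1 kb, and 81.0% of these were distal. Just inside the limit, 40 members had a 4OHT summit 251 to 260 bp away, with a median untreated score of 12.7. Just outside it, 49 partnered summits had their nearer 4OHT summit at 241 to 250 bp and a median score of 11.8. At the other limit, 52 members had their untreated replicate 2 partner at 241 to 250 bp, and 65 summits without 4OHT partners had the replicate 2 summit at 251 to 260 bp and were not members, with median scores of 6.53 and 5.6.

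The 10 strongest members, ranked by the smaller untreated score, mostly had a 4OHT summit close by. The first lay 24112 bp from Rpp21 with untreated scores of 158 and 95.1, and 4OHT summits with scores of 304 and 379 lay 252 and 253 bp from it. At the promoter of Tom1, an endosomal sorting gene, the member scored 77.0 and 75.1 and 4OHT summits lay 314 bp away in both samples. At Napa, which encodes alpha-SNAP, they lay 320 and 352 bp away, and at Rnpc3, a gene of the minor spliceosome, 253 and 252 bp away. Members with Usp5, Garem1, Mid1, Tcte2 and Esp38 as nearest gene had 4OHT summits between 292 and 1951 bp away. Tcte2 itself lay 165386 bp and Esp38 106958 bp from its member. The exception among the 10 was a distal member 32658 bp from Klhl42, with untreated scores of 42.6 and 36.9 and the nearest 4OHT summits 53849 and 53730 bp away. That region was open in the 3 EB lists from 12 h and not in MEF_NoDox. Kept summits with the highest scores had Lrrc4c, Galc, Chl1, Gm2244 and Rpusd4 as nearest genes. Lrrc4c lay 1035309 bp, Galc 1140733 bp and Gm2244 116400 bp away, so these summits were not close to them. The highest kept scores lay between 2149 and 9982 in untreated replicate 1, far above any member and above the list median of 8.63. Summits were not filtered for repeats or artefact regions. Whether the highest scores, of kept summits or of members, reflect open chromatin was not tested.

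Of the 26 genes of the nascent mesoderm list 18 had a member within 50 kb, against 6817 of all 21627 protein-coding genes. Its genes had a median of 1 member and 1 kept summit, against 0 and 1 over all protein-coding genes. The shares of the lists below are those of distal summits, a choice made after seeing the data. Of the 39 distal summits near mesoderm genes 26 were missing, or 66.7% (49.8 to 80.9), beside 51.8% of all distal summits and 54.5% for all distal summits of the same score bins, and the interval holds both of these.

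Mesp1 and Mesp2, neighbouring genes for bHLH factors of nascent mesoderm, had 5 and 6 members within 50 kb and no kept summit, and share 5 members. Around Mesp2 the 4OHT lists held 2 and 2 summits and the untreated lists 9 and 8. Around Mesp1 they held 3 and 3 with 4OHT and 9 and 7 without it. These counts come from the lists that chose the members and are a description. The strongest of these members lay 2708 bp from Mesp1, with untreated scores of 17.3 and 9.05 and the nearest 4OHT summits 3645 and 3434 bp away. A second lay 3904 bp from Mesp1 on the other side, with scores of 8.82 and 6.27, and was in none of the 12 h EB lists. Farther along, a member 63 bp from the start of Anpep, which encodes aminopeptidase N, scored 12.4 and 5.85, and its nearest 4OHT summit was 36965 bp away. Mesp1 itself still had a summit in each of the 4 floxed lists. These lay 0.263 and 0.052 kb from the middle of the gene with 4OHT and 0.606 and 0.238 kb from it without 4OHT. The 7 partnered summits in a row from Wdr93 over Mesp1 and Anpep to Ap3s2 were all members and spanned 140 kb.

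Evx1, a homeobox gene of the primitive streak, had 3 members and no kept summit, with 1 and 1 summits within 50 kb with 4OHT and 7 and 5 without it. One of its members lay 14352 bp from the gene with untreated scores of 15.1 and 8.73, and 4OHT summits lay no closer than 17906 bp. Meis1, a homeobox gene of the TALE class, had 3 members and 2 kept summits, with 5 and 4 summits with 4OHT and 8 and 6 without it. Its kept summit near the start scored 17.3 and 15.7 in the untreated lists, and its members scored between 2.99 and 4.91 in replicate 1. Hand2, a bHLH gene of heart and limb, had no member and 4 kept summits, with 6 and 7 summits with 4OHT and 6 and 8 without it. Msx2, a homeobox gene of BMP responses, had no member and 2 kept summits, with 6 and 4 summits with 4OHT and 3 and 3 without it.

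Cardiac genes had the second highest share of missing distal summits among the 10 lists. Of 22 distal summits near 18 cardiac genes 18 were missing, or 81.8% (59.7 to 94.8), beside 55.2% for distal summits of the same scores. With proximal summits included the cardiac share was 48.9% (33.7 to 64.2), the highest of the lists. With the 4 floxed lists shortened to equal length it was 29.2% (12.6 to 51.1). That interval holds the 17.1% of all partnered summits. Gata5, a GATA factor of endocardium, had 3 members and no kept summit, with 0 and 1 summits with 4OHT and 4 and 5 without it. These 3 members lay nearer to or within the neighbouring gene Rbbp8nl, and the strongest scored 18.9 and 13.5. Tnnt2, which encodes cardiac troponin T, had 3 members, with 1 and 0 summits with 4OHT and 5 and 5 without it. Its members scored between 3.75 and 9.60 in replicate 1, and 2 of the 3 lay within Tnni1, a neighbouring troponin gene. Actc1, which encodes cardiac actin, had 2 members 4757 and 14375 bp from the gene, with scores of 16.2 and 10.3 for the nearer and 13.04 and 3.53 for the farther. The 4OHT lists held 1 and 1 summits around Actc1 and the untreated lists 3 and 4. Gata4 had 2 members and 2 kept summits, with 4 and 5 summits with 4OHT and 9 and 7 without it. Isl1 and Myh6, a heart progenitor factor and a cardiac myosin gene, each had 2 kept summits and no member. Counts of a few summits per gene do not separate genes within the list.

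**Figure D2:**
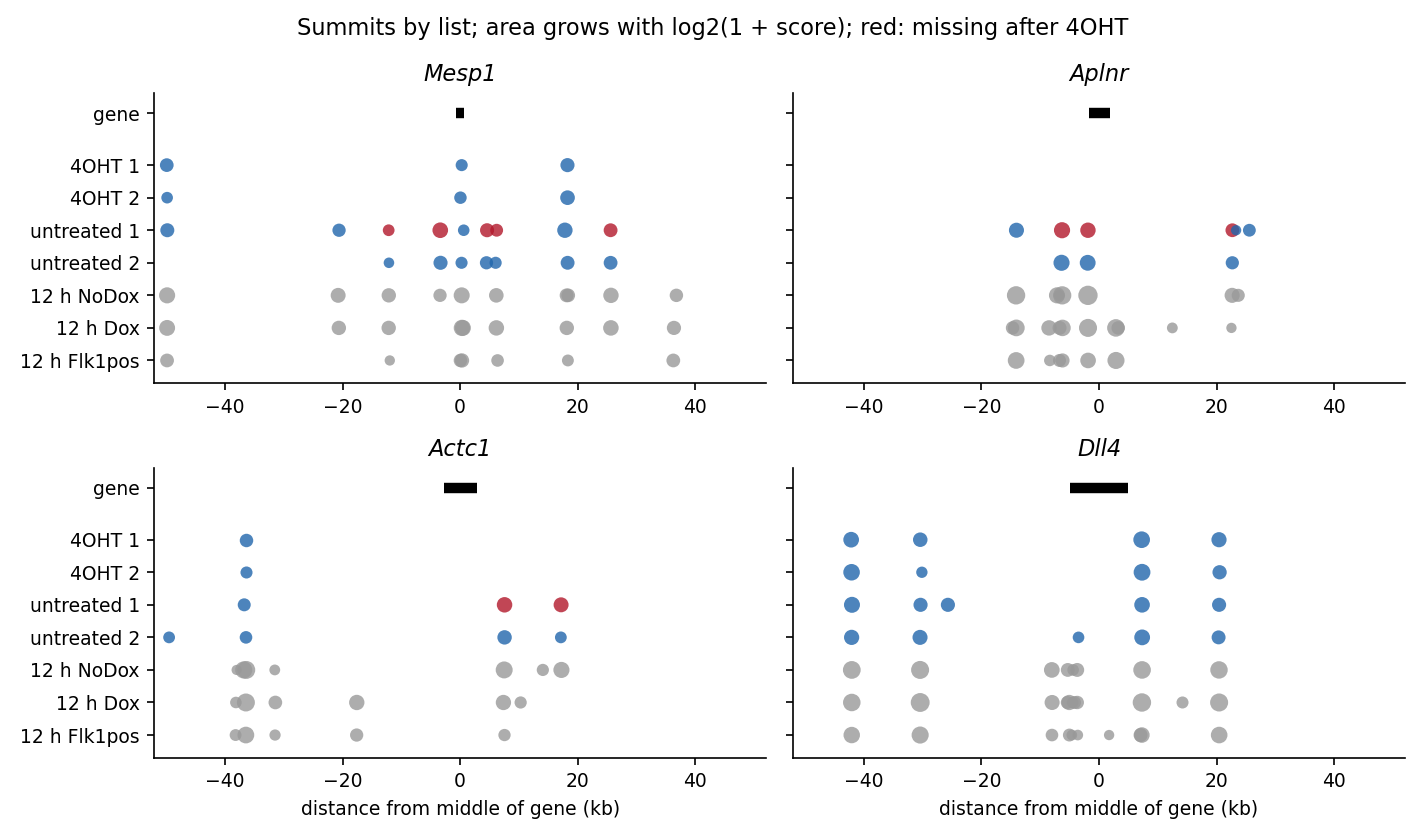
Summits within 50 kb of the middle of Mesp1, Aplnr, Actc1 and Dll4 (x axis, kb) in the 4 floxed EB lists and the 3 EB lists from 12 h (rows, 4OHT above untreated), with point area growing with log2 of 1 plus the score and members in red on the row of untreated replicate 1. Around Aplnr the 4OHT rows are empty, whereas at Dll4 4 summits recur in each of the 4 floxed lists.

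Endothelial genes as a list lay near the background. Of 53 distal summits near the 42 genes 30 were missing, or 56.6% (42.3 to 70.2), beside 52.6% for the same scores. Aplnr, which encodes the apelin receptor of mesodermal progenitors and endothelium, had 3 members and no kept summit, with 0 and 0 summits within 50 kb with 4OHT and 6 and 3 without it. Its members lay 4519 and 109 bp from one side of the gene and 20896 bp from the other. Their untreated scores were 21.8 and 21.3 for the first, 15.7 and 19.03 for the second and 7.90 and 6.25 for the third. The 2 stronger regions were open in the 3 EB lists from 12 h and none of the 3 was in MEF_NoDox. The Aplnr members belong to a run of 11 members on chromosome 2, with no other partnered summit between them, that spans 4965 kb from Tnks1bp1 into clusters of olfactory receptor genes.

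Kdr, the gene of the Flk1 receptor, had 2 members and 1 kept summit, with 1 and 1 summits with 4OHT and 3 and 3 without it. The kept summit, 65 bp from the start, scored 12.9 and 13.04. The members lay 2521 and 29380 bp from the gene, scored 3.37 and 4.80 and 8.74 and 4.84, and were in none of the 12 h EB lists. Eng, the endoglin co-receptor gene, had 3 members and 3 kept summits, with 4 and 4 summits with 4OHT and 7 and 7 without it. The kept ones were at the starts of the neighbours Fpgs, Cdk9 and Sh2d3c. Nrp2, a neuropilin gene, had 3 members scoring between 3.74 and 5.6 in replicate 1, with 3 and 3 summits with 4OHT and 9 and 7 without it. Foxc1 had 3 members between 7.63 and 8.58 in replicate 1, with 3 and 2 summits with 4OHT and 4 and 5 without it. Dll4 and Notch1, a Notch ligand and receptor of vessel formation, had no member and 4 and 3 kept summits, and Notch1 had 3 and 3 summits with 4OHT and 6 and 5 without it. Around Etv2 itself 1 member and 3 kept summits lay within 50 kb, with 4 and 3 summits with 4OHT and 6 and 6 without it, and the member, in the neighbour Zbtb32, scored 18.4 and 10.5.

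Haematopoietic genes had the lowest share of missing distal summits among the lists. Of 17 distal summits near 20 genes 4 were missing, or 23.5% (6.81 to 49.9), beside 46.6% for the same scores, a value within the interval. With proximal summits included the share was 18.75% (10.1 to 30.5), above the 14.3% of housekeeping, 16.7% of SWI/SNF and 16.98% of neural genes. With equal list lengths it was 6.38% (1.34 to 17.5), an interval that holds the 17.1% of all partnered summits. Runx1 had 2 members and no kept summit, with 2 and 1 summits with 4OHT and 7 and 3 without it. Gata2, a factor of blood stem cells, had 2 members and 1 kept summit. Its member 140 bp from an annotated start inside the gene scored 3.60 and 6.64, and its kept summit 4070 bp away scored 19.5 and 13.2. Klf1 and Cbfa2t3, an erythroid factor and a co-repressor of Tal1 complexes, had 5 and 3 kept summits and no member.

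Of 31 distal summits near pluripotency genes 11 were missing, or 35.5% (19.2 to 54.6), beside 53.1% for the same scores, a value within the interval. Esrrb went against its list, with 3 members, no kept summit, 0 and 1 summits with 4OHT and 6 and 5 without it. Tbx3, a T-box gene, had 3 members and no kept summit, and its strongest member, at 28.5 and 12.9, had 4OHT summits 337 and 268 bp away. Fgf4, a growth factor gene of the epiblast, had 2 members and 2 kept summits. Nanog and Sall4, core factors of pluripotency, had 4 and 3 kept summits and no member. Nanog had 6 and 8 summits with 4OHT and 6 and 5 without it, so that the groups touched.

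**Figure D3:**
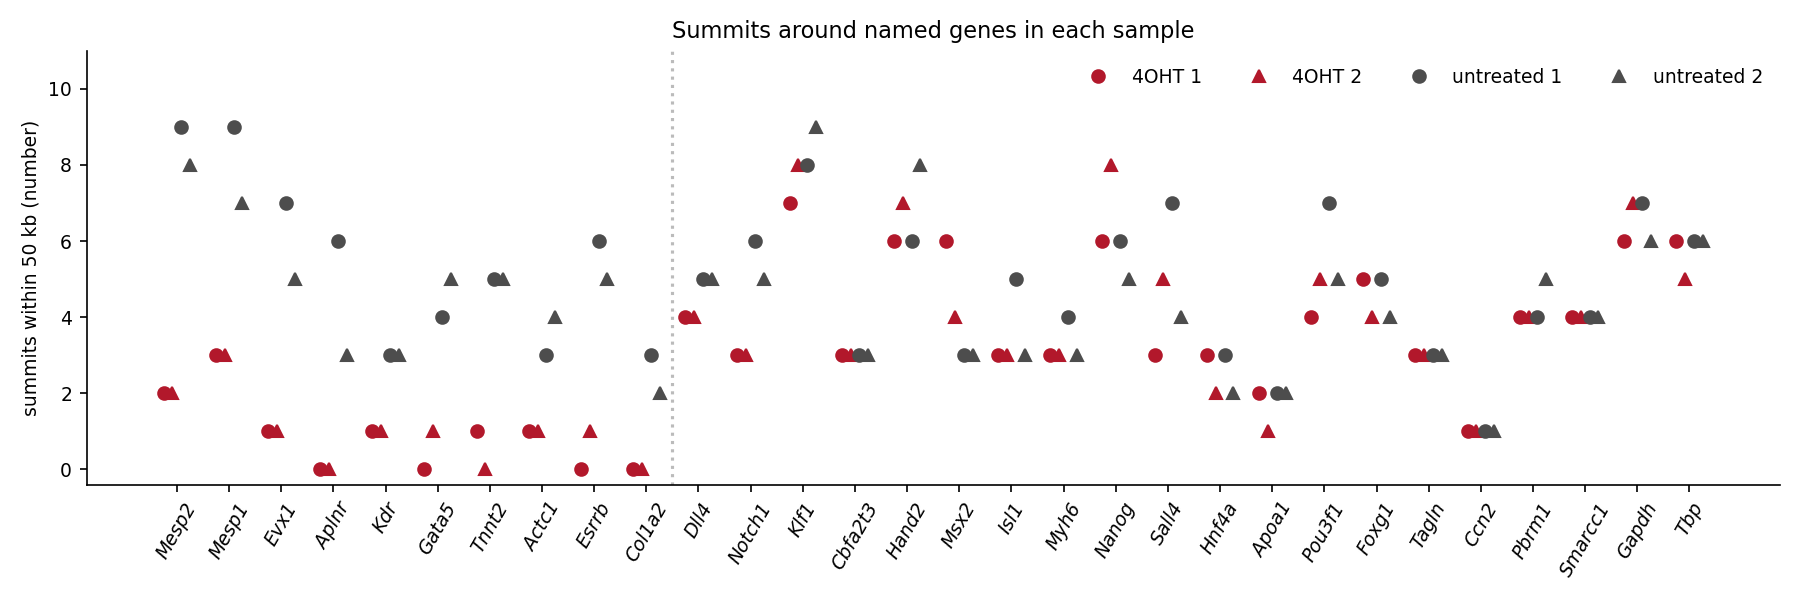
Number of summits within 50 kb (y axis) of named genes (x axis) in each of the 4 floxed EB samples, red for 4OHT and grey for untreated, circles for replicate 1 and triangles for replicate 2. Left of the dotted line are genes with members, such as Mesp2 with 2 and 2 summits with 4OHT against 9 and 8 without it. Right of it are the 20 genes named as having the most kept summits of their list and no member. There the groups meet or overlap except at Dll4, with 4 and 4 against 5 and 5, at Notch1, with 3 and 3 against 6 and 5, and at Msx2, with 6 and 4 against 3 and 3. Both sides were picked from the same 4 lists that are drawn, so the contrast between them follows from the choice. Separation of the groups over all protein-coding genes was not counted.

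Genes of fibroblasts and other mesenchyme had the highest share of missing distal summits among the lists. Of 23 distal summits near 28 genes 20 were missing, or 87.0% (66.4 to 97.2), beside 57.8% for the same scores. With proximal summits included the share was 47.3% (33.7 to 61.2), just under that of cardiac genes. With equal list lengths it was 25.8% (11.9 to 44.6), below mesoderm at 30.4% (18.8 to 44.1), cardiac at 29.2% and endothelial genes at 26.1% (17.3 to 36.6). The fibroblast interval holds the 17.1% of all partnered summits, whereas those of mesoderm and endothelial genes lie above it. The 17.1% is matched neither for score nor for position. With the lists at full length, endothelial genes had 33.3% (24.9 to 42.6) missing, beside 30.8% for the same scores and positions. Mesoderm genes had 41.0% (30.3 to 52.3), beside 34.6%. Both intervals hold the matched share. Col1a2 had 2 members and no kept summit, with 0 and 0 summits with 4OHT and 3 and 2 without it. Ccn1, a matrix protein gene and YAP target, had 2 members 35108 bp from the gene and 9480 bp from its neighbour Znhit6, and its own start was kept. Zeb2, a repressor of epithelial genes, had 3 members within its gene interval and a kept start that scored 18.9 and 15.1. Prrx2, a mesenchymal homeobox gene, had 3 members, of which 2 lay within Ptges. Tagln, an actin-binding protein gene, had 3 kept summits and no member, with 3 summits in each of the 4 floxed lists.

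In the remaining lists, 8 of 14 distal summits near endoderm genes were missing, or 57.1% (28.9 to 82.3), and 8 of 26 near neural genes, or 30.8% (14.3 to 51.8), beside 49.3% for the scores of the neural ones. Among endoderm genes Cxcr4, a chemokine receptor gene, had 2 members and a kept start, with 1 and 1 summits with 4OHT and 5 and 5 without it. Foxa1 had 2 members and 2 kept summits. Sox1, a neural factor gene, had 2 members 39788 and 46513 bp away and yet 4 and 4 summits with 4OHT against 3 and 4 without it. Near SWI/SNF subunit genes 9 of 19 distal summits were missing, or 47.4% (24.4 to 71.1), and near housekeeping genes 10 of 21, or 47.6% (25.7 to 70.2). Among SWI/SNF genes, Arid1a had members inside the gene and 186 bp from its start, while Pbrm1 and Smarcc1 each had 4 kept summits and no member. Gapdh had no member and 5 kept summits, with 6 and 7 summits with 4OHT and 7 and 6 without it. Actb had 1 member 18400 bp away, with scores of 10.5 and 15.4, and 2 kept summits. The intervals of the small lists are wide, and those of mesoderm, endoderm, endothelial, housekeeping, SWI/SNF and pluripotency genes hold the 51.8% of all distal summits. Those of haematopoietic and neural genes end just below it but hold the share for the same scores.

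**Figure D4:**
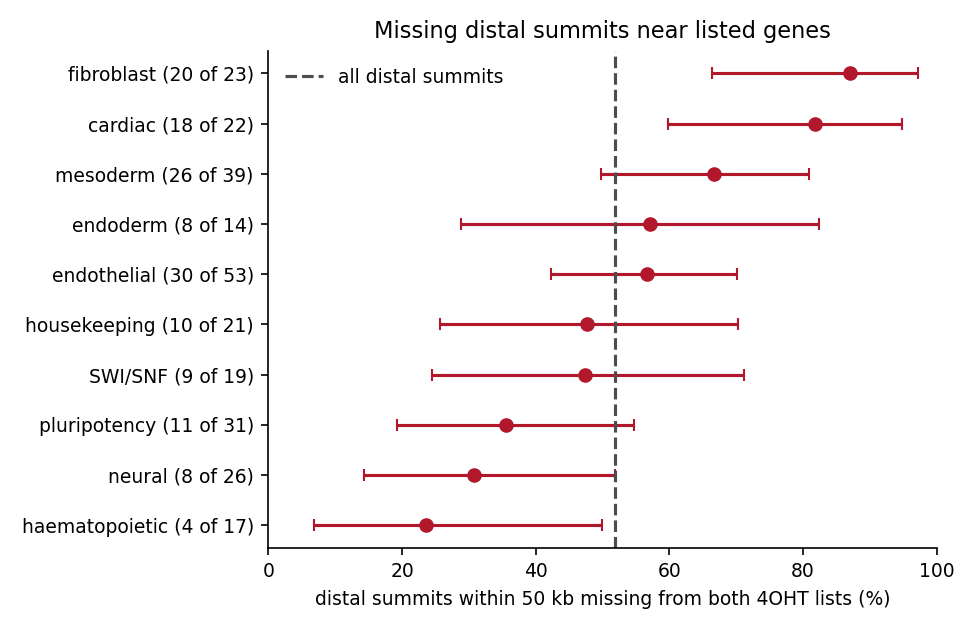
Percentage of distal summits within 50 kb of the genes of each list that were missing from both 4OHT lists (x axis), with exact 95% intervals and the numbers missing and counted beside each list name (y axis). The dashed line marks the 51.8% of all distal summits; fibroblast (87.0%) and cardiac (81.8%) genes lie to its right, and haematopoietic (23.5%), neural (30.8%) and pluripotency (35.5%) genes to its left.

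Over all protein-coding genes, Gse1 had the most members, with 11 of them and 5 kept summits, with 9 and 11 summits with 4OHT and 33 and 27 without it. Its kept summits included some at annotated starts and a pair inside the gene with untreated scores of 40.6 and 30.1 and of 25.8 and 28.2. Nrxn3, which encodes the synaptic protein neurexin, had 10 members and 2 kept summits, with 4 and 6 summits with 4OHT and 24 and 17 without it. Its strongest member scored 23.2 and 17.9, and its nearest 4OHT summit was 141213 bp away. Of the 10 members at Nrxn3 none was in MEF_NoDox. Pknox2, a TALE homeobox gene, had 8 members and 1 kept summit, with 2 and 2 summits with 4OHT and 16 and 12 without it, and 7 of its members stood in a row over 189 kb. The other genes of this rank were Atxn7l1 with 8 members, Auts2, Dlc1 and Pde4d with 7 each, Anpep with 6, and Gm37013 and Gm38666, which share the same 6. Mesp2 also had 6. A run of 11 members also spanned 471 kb from Rad51b to Zfp36l1 on chromosome 12. Runs of this kind are described only, since a run is longer where kept summits are sparse: kept summits lay a median of 82.3 kb apart and members 247 kb.

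By chromosome, the share of distal summits missing ranged from 33.8% on X (27.4 to 40.8; 69 of 204) to 57.7% on chromosome 17 (51.7 to 63.6; 161 of 279). Chromosome 15 was next lowest at 43.3% (37.3 to 49.6). The 4OHT lists had 3.69% and 3.74% of their summits on X, against 3.10% and 3.07% in the untreated lists. On chromosomes 8 and 12 the 4OHT shares were the lower ones. Shares of list summits on the remaining chromosomes were not compared. How often 2 samples against 2 separate over all chromosomes is thus not known here, and no chromosome is singled out.

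Most members were open earlier in EB without a floxed allele. At 12 h, 81.8% of members (80.7 to 82.9) had a summit in EB_NoDox_D25, 76.4% (75.2 to 77.5) in EB_Dox_D25 and 66.2% (64.8 to 67.5) in the Flk1-positive cells, against 97.7%, 98.2% and 97.1% of kept summits. After weighting to the member scores the kept shares were 95.9%, 96.4% and 93.8%. Distal members showed the same order, at 79.4%, 72.7% and 61.1%, against 95.2%, 95.8% and 93.0% of distal kept summits. The 12 h lists hold several summits for a part of their peaks, which the floxed lists do not, and are longer, at 58004 to 85498 summits, so shares in them are set side by side for members and kept summits and not against the day-4 lists.

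Members that were open at 12 h differed between the 12 h lists more often than kept summits did. Of the 4068 members in EB_NoDox_D25, 12.3% (11.3 to 13.4) were absent from EB_Dox_D25, against 0.837% of kept summits (0.675 to 1.02) and 1.54% of kept summits weighted to the member scores. In the other direction, 6.06% of members in EB_Dox_D25 (5.32 to 6.87) were absent from EB_NoDox_D25, against 1.32% of kept summits (1.12 to 1.55) and 2.06% after weighting. Of members in EB_Dox_D25, 16.4% (15.2 to 17.6) were absent from the Flk1-positive cells, against 1.89% of kept summits (1.65 to 2.16) and 3.98% after weighting. Over the whole lists the 3 shares were 30.4%, 21.9% and 35.4%, above those of members and kept summits. The comparisons reuse the same Dox list and have no replicate lists. The members near Mesp1 followed this pattern in part: the strongest was in EB_NoDox_D25 only among the 3 lists, as were both members 5′ of Foxc1.

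Members were rarer in fibroblasts. Of the members 27.3% (26.1 to 28.6) had a summit in MEF_NoDox, against 82.0% of kept summits (81.3 to 82.7), or 51.8% after weighting. For distal summits the shares were 21.2% (19.9 to 22.5) and 50.2% (48.2 to 52.2), the second being 33.1% after weighting. In at least 1 of the 12 h EB lists and in no MEF list were 54.2% of members (52.8 to 55.6) and 11.4% of kept summits (10.8 to 12.0). No other list of the series held 531 of the members (10.7%) and 37 of the kept summits (0.329%). All 15 other lists held 25 members and 1618 kept summits.

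Fibroblasts with Brg1 knockdown give a second comparison with less Brg1, in another cell type. Of the 1357 members open in MEF_NoDox, 37.6% (35.0 to 40.2) were absent from MEF_Brg1_KD_D0, against 9.29% of kept summits (8.71 to 9.90) and 23.0% after weighting. For distal summits the shares were 42.3% (38.9 to 45.8) and 21.0% (18.7 to 23.4), or 30.3% for kept summits after weighting. On day 1 of Dox the shares were 46.4% of members and 14.5% of kept summits, and 32.1% after weighting. On day 2 they were 15.3% of members and 6.11% of kept summits, but 18.5% of kept summits after weighting, above the members. On day 7 they were 66.8% and 53.3%, and 61.1% after weighting. Over the whole lists the shares on days 0, 1, 2 and 7 were 53.6%, 56.6%, 28.7% and 52.9%, above those of members and kept summits except on day 7, when they were below both. List lengths differed too, so the shares are not a time course of knockdown. The knockdown list was the shorter one on day 0 (36730 against 62028 summits) and day 1 (26882 against 50015). It was also shorter on day 7 (13644 against 18418), but longer on day 2 (37772 against 26217). Whether list length accounts for the shares was not tested. No score of the knockdown lists has over 6 significant digits, whereas 27.6% to 52.1% of those of the other MEF lists do. The lists were thus not all made alike, and knockdown and list making cannot be told apart.

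**Figure D5:**
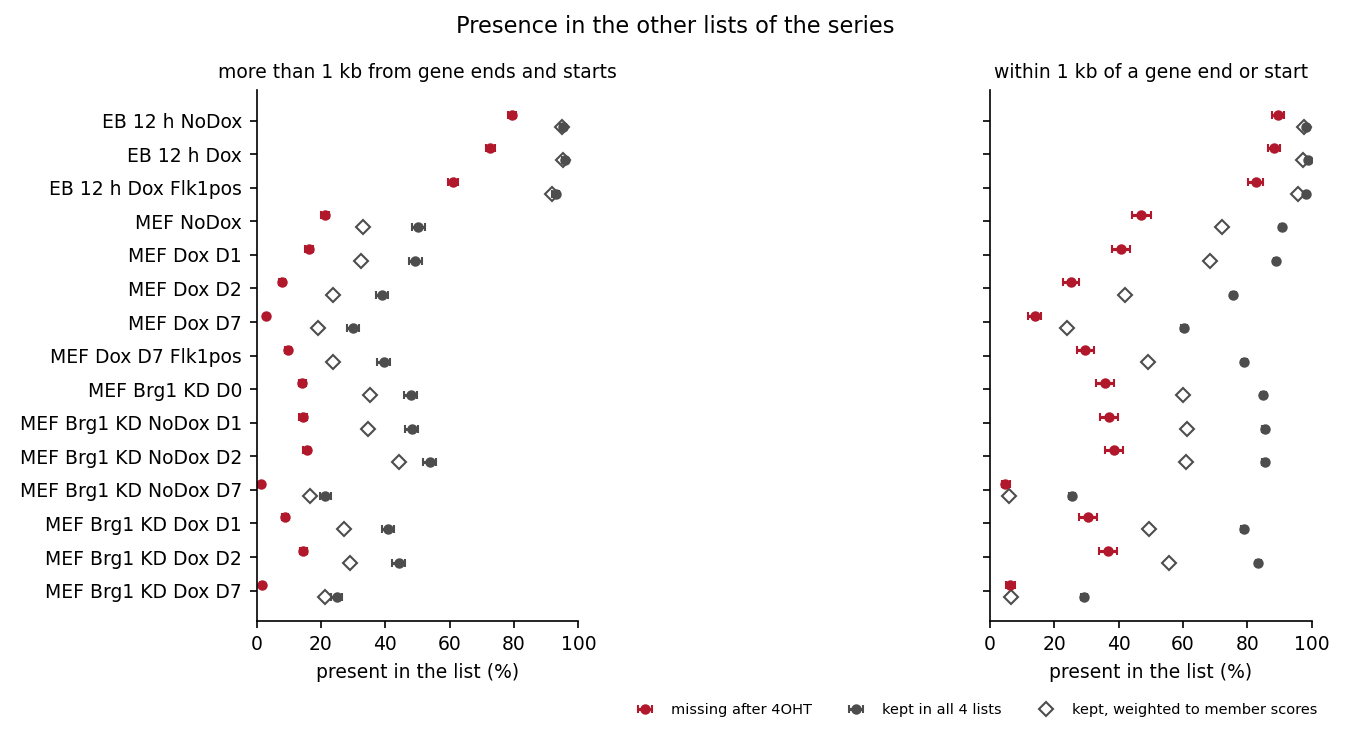
Percentage of members (red) and of kept summits (grey) that have a summit within 250 bp in each of the 15 other lists (rows), for distal summits on the left and proximal summits on the right, with exact 95% intervals. Open diamonds are kept summits weighted to the scores of the members; distal members lie between 61.1% and 79.4% in the EB lists and at most at 21.2% in the MEF lists.

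At promoters, members occupied windows with fewer CpG dinucleotides than kept summits did. The CpG and motif comparisons were not weighted to score. Proximal members had a median score of 8.32 in untreated replicate 1, against 23.5 for proximal kept summits. Whether score accounts for the CpG difference was not tested. A member lay in 446 of the 32585 RefSeq promoter windows of 300 bases and a kept summit in 6599. Member windows had a median of 13 CpG and a GC content of 58.7%, against 25 CpG and 64.3% in kept windows, and 7 CpG and 53.0% over all windows. At least 15 CpG were held by 43.5% of member windows (38.8 to 48.2), 89.0% of kept windows (88.2 to 89.7) and 34.8% of all windows.

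Short motifs were searched on both strands of these windows, each as an exact string. GGGCGGG, bound by SP and KLF factors, was in 35.7% of member windows (31.2 to 40.3), 59.3% of kept windows (58.1 to 60.5) and 25.7% of all windows. CCGGAAG, an ETS core, was in 7.40% of member windows (5.15 to 10.2), 22.7% of kept windows (21.7 to 23.7) and 8.92% of all windows. The other ETS core searched, AGGAAG, was in 40.1% of member windows (35.6 to 44.8), 29.4% of kept windows (28.3 to 30.6) and 35.2% of all. CAGCAGG, a ZIC motif, was in 17.04% of member windows (13.7 to 20.9), 9.12% of kept windows (8.44 to 9.84) and 10.6% of all. TCAAAG, a TCF/LEF motif, was in 16.6% of member windows (13.3 to 20.4), 9.14% of kept windows (8.45 to 9.86) and 15.99% of all, and it occurs as a pair in the Msgn1 window. TGANTCA, the AP-1 motif, was in 8.07% (5.72 to 11), 3.29% (2.87 to 3.75) and 7.85%.

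Since CpG content differed, the shares were also taken within CpG classes. In windows with at least 15 CpG, CCGGAAG was in 9.28% of member windows (5.59 to 14.3) and 23.4% of kept windows (22.3 to 24.5), and CAGCAGG in 15.98% (11.1 to 21.9) and 8.79% (8.08 to 9.54). In windows under 15 CpG, CCGGAAG was in 5.95% (3.37 to 9.63) and 17.4% (14.7 to 20.4), and CAGCAGG in 17.9% (13.3 to 23.2) and 11.8% (9.55 to 14.4), intervals that overlap for CAGCAGG. The SP/KLF motif GGGCGGG was in 29.4% of member windows (23.8 to 35.4) and 34.2% of kept windows (30.7 to 37.7) under 15 CpG, also with overlapping intervals, but in 43.8% (36.7 to 51.1) and 62.4% (61.1 to 63.6) with at least 15 CpG, where they did not overlap. AGGAAG was in 45.2% of member windows (39.0 to 51.6) and 39.2% of kept windows (35.7 to 42.9) under 15 CpG, and in 33.5% (26.9 to 40.6) and 28.2% (27.1 to 29.4) with at least 15 CpG, so that the intervals overlapped in both classes. The GATA-factor motif AGATAA was in 8.07% of member windows (5.72 to 11), 3.80% of kept windows (3.36 to 4.29) and 11.2% of all windows. The E-box CAGATG, bound by Tal1-type bHLH factors, was in 15.02% of member windows (11.8 to 18.7), 9.02% of kept windows (8.34 to 9.73) and 17.1% of all windows. For the TCF/LEF, GATA-factor and E-box motifs, too, the intervals overlapped in both CpG classes. The AP-1 motif was in 7.14% of member windows (4.29 to 11.1) and 5.35% of kept windows (3.83 to 7.24) under 15 CpG, and in 9.28% (5.59 to 14.3) and 3.03% (2.61 to 3.50) with at least 15 CpG, the class where they did not overlap. Intervals of members and kept windows overlapped for the other motifs before this split. The TEAD motif GGAATG was in 10.3% of member windows, 9.96% of kept windows and 14.6% of all windows. The SOX motif ACAATG was in 7.17%, 5.47% and 12.2% of them. The octamer ATGCAAAT of POU factors was in 2.69%, 1.55% and 1.75%. The forkhead motif GTAAACA was in 3.14%, 1.86% and 3.67%. The T-box motif AGGTGTGA was in 1.12%, 0.606% and 1.28%. A match is a string in the window and says nothing of binding. Distal members, the larger share, were not searched, since no genome sequence was used here.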

How the data were processed

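Chromatin accessibility was measured by ATAC-seq of trypsin-dissociated cells with Tn5 transposase, per the labels' protocols. Reads were aligned to mm10 with Bowtie2 2.2.4 and processed with MACS2 and HOMER, per the submitters' processing notes. The deposited files are lists of summits, and their score is the −log10 of the q value at the summit, above 1.30 (a q value of 0.05) in all 19 lists. Trimming, duplicate handling and read depth are not given in the sources used here. Summits on chromosomes 1 to 19 and X were matched within 250 bp with Python 3.11.15, numpy 2.4.6, pandas 2.3.3 and scipy 1.17.1 and drawn with matplotlib 3.10.9; the matching was checked on simulated lists. Genes and promoter windows came from RefSeq (GRCm38.p6): 17273 of 21627 protein-coding genes had a window, and on chromosome 18, where no window was used, starts were not measured and gene ends alone made a summit proximal. All 230 distinct genes of the 10 lists were found. Weighting gives kept summits the distribution of the members over 10 bins of the untreated replicate 1 score. Shares have exact Clopper-Pearson 95% intervals and no p-value. The members, lists, motifs and rules were chosen with earlier results of these data known. Named are, per list, the 4 genes with most members and the 2 with most kept summits and no member, the nearest genes of the 10 strongest members and 5 strongest kept summits, the 10 genes with most members, genes whose shown promoter held a member, neighbours of these, the markers, and Smarca4, Etv2, Kdr, Gapdh and Actb. Alternatives were other matching distances, score limits, equal list lengths, and leaving out each floxed sample.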

Additional observations from a re-analysis of the deposited data

How the results depend on the processing

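The 5 results are the percentage missing and 4 differences, members minus kept, in percentage points: at gene ends, in EB_Dox_D25, in EB_Dox_D25 but not EB_NoDox_D25, and in MEF_NoDox but not MEF_Brg1_KD_D0. None of the alternatives of the 4 differences turned a direction, whereas the percentage missing has no direction to turn. The cause of each move was not tested, beyond what a setting removes by construction. Matching within 100 bp gave 33.9% missing and differences of -47.6, -19.0, 5.78 and 22.2. Matching within 500 bp gave 24.5% and, for the third difference, 3.51. Scores of at least 10 in both untreated lists gave 7.04%, and -12.3, 3.10 and 21.7 for the last 3 differences. Equal list lengths gave 17.1%, and -14.9, 2.95 and 22.4 for them. Weighting kept summits to the member scores gave -26.1 at gene ends, -20.0 in EB_Dox_D25 and 14.6 in knockdown fibroblasts. Settings added after seeing the data were 1 kb in place of 250 bp for the absence with 4OHT, which gave 23.4% missing and -56.2 at gene ends; annotated starts in place of gene ends, which gave -47.2; and distal summits, which gave -23.1 in EB_Dox_D25 and 21.4 in knockdown fibroblasts, or 12.0 there with weighting. Leaving out a 4OHT sample can only raise the percentage missing, because fewer lists must then lack the summit. Leaving out each floxed sample gave between 31.4% and 45.3% missing, the highest without untreated replicate 2. The differences then lay between -51.1 and -43.9 at gene ends, -33.1 and -17.0 in EB_Dox_D25, 3.63 and 7.85 for absence from EB_NoDox_D25, and 22.3 and 34.5 in knockdown fibroblasts. Of 50 gene list shares under alternatives, 37 stayed within the interval of the main value and 13 moved. The motif search around summits was not run, since no genome sequence was used. No paired analysis was possible because the results come from no test: a member is defined over all 4 floxed lists together. Depth per sample is unknown here, and a shorter list can lack a weak region that is open.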
